A study of Mus musculus with 12 samples.

Results

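The nuclear-encoded subunits of the mitochondrial respiratory chain and ATP synthase were followed in RNA-seq of periocular skin, the skin around the eye. Members were the genes whose symbols match fixed stems for complex I (Nduf), complex II (Sdh), complex III (Uqcr and Cyc1), complex IV (Cox) and complex V (Atp5), leaving out rows named as pseudogenes or related sequences and genes under 10 counts summed over the libraries. This gave 76 members of the 21247 genes listed, and all 76 reached the minimum and were among the 20454 genes tested. The stems do not reach Cox5a, Cox5b, Cox6c, Cox7b, Cox7c, Cox8a, Cox8b, Ndufab1 and Usmg5, and these 9 subunits are described beside the members without being counted among them. The muscle isoforms Cox6a2, Cox7a1 and Cox8b are kept apart from the rest of complex IV.

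The samples were eye-skin biopsies of 6-week-old mice on a BALB/c background, with 4 libraries from ft/ft mice and 4 from ft/ftMyD88-/- mice. Both groups carry the spontaneous loss-of-function mutation of filaggrin (Flg), a protein of the outer epidermis, and ft/ftMyD88-/- mice came from a cross that also lacks MyD88, the adaptor of toll-like and IL-1 receptors, in the whole animal. Wild-type libraries were not analysed here. The comparison asks how the subunits differ between filaggrin-deficient skin with and without MyD88.

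Respiratory complexes I, III and IV pass electrons from NADH to oxygen and pump protons across the inner mitochondrial membrane, complex II feeds electrons in from succinate, and complex V uses the proton gradient to make ATP. Most subunits are encoded in the nucleus and imported, while the remaining subunits of complexes I, III, IV and V are made from mitochondrial DNA, and complex II has none of these. Some complex IV subunits exist as isoforms, one of which is made in striated muscle. In skin, mitochondria-rich cells include the fibres of the thin muscle layers under the dermis and around the eyelid.

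The 4 ft/ft libraries held 18941705 to 29255129 counts, and the 4 ft/ftMyD88-/- libraries 15802957 to 27037997. Levels are given as CPM, counts per 1000000 of the library size after scaling by edgeR's TMM method, and the TMM factors were 0.922 to 0.954 in ft/ft and 1.04 to 1.09 in ft/ftMyD88-/-. The libraries were checked against their description for Myd88 and for sex. Myd88 itself stood at 41.2 ± 7.29 CPM (SD, n = 4) in ft/ftMyD88-/- and at 30.7 ± 4.74 (SD, n = 4) in ft/ft. Its log2 fold change, ft/ftMyD88-/- over ft/ft, was 0.42 (edgeR adjusted p = 0.0484), and the groups overlapped. Counts over the whole gene thus do not show its loss, and they cannot tell an intact transcript from a partial one. The mice are described as female, yet Xist, an RNA made from the silenced X chromosome, was at 0 to 0.0429 CPM in the 4 ft/ft libraries and 34.6 to 66.8 CPM in the 4 ft/ftMyD88-/- libraries, while the Y-linked Ddx3y was at 54.2 to 73.2 CPM in ft/ft and 0 to 0.482 CPM in ft/ftMyD88-/-. Sex and genotype therefore cannot be told apart in any value below, and every direction rests on the labels.

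Promoters of 7 subunits are shown here as examples. They are the muscle isoforms Cox7a1 and Cox8b with their partners Cox7a2 and Cox8a, and the 3 subunits of complex II with a window, Sdha, Sdhb and Sdhd. In these pairs and this complex some subunits were lower in ft/ftMyD88-/- and others did not pass the test. The same holds for other members with windows that are not shown, such as Atp5g1 and Atp5g3. Each run is a RefSeq window of GRCm38.p6 from 250 bases before to 50 bases after a transcript start, on the strand of the gene. The Cox7a2 window lies inside its gene (chromosome 9, 79755241 to 79771422), not at the gene's outer start. Capitals mark matches on either strand to the core motifs of NRF1 (GCGCANGCG) or of ETS-family factors such as GABPA (CCGGAAG). Cox7a1 lies at chr7:30183921-30184220 (plus strand), Cox7a2 at chr9:79759804-79760103 (minus strand), Cox8b at chr7:140900397-140900696 (minus strand), Cox8a at chr19:7217567-7217866 (minus strand), Sdha at chr13:74350191-74350490 (minus strand), Sdhb at chr4:140961021-140961320 (plus strand) and Sdhd at chr9:50603800-50604099 (minus strand).
Cox7a1: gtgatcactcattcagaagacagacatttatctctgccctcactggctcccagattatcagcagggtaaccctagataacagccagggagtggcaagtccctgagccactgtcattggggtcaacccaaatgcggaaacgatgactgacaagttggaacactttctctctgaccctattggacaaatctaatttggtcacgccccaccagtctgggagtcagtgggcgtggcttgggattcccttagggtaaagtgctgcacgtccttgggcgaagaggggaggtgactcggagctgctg
Cox7a2: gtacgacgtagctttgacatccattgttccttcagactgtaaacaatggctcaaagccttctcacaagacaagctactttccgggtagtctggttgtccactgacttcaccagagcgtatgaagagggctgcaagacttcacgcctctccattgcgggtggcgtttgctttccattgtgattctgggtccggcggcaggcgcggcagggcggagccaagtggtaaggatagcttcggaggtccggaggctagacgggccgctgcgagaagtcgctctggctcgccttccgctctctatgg
Cox8b: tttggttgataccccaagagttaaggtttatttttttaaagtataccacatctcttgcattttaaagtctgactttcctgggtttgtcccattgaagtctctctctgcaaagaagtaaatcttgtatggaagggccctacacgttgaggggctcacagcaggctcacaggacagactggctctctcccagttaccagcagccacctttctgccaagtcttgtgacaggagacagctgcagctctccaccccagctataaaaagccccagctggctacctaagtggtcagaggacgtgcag
Cox8a: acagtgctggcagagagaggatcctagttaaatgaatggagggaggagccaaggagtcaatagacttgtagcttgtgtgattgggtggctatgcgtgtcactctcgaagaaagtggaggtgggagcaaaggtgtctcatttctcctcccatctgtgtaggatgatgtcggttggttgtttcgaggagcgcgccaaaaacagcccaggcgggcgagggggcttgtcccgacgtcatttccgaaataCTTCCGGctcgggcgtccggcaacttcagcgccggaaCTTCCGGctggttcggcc
Sdha: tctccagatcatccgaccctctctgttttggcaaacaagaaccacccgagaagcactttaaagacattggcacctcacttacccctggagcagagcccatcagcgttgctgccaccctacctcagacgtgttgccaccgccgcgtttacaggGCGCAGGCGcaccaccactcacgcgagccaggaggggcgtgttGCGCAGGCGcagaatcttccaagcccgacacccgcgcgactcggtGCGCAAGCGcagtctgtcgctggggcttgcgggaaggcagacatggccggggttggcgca
Sdhb: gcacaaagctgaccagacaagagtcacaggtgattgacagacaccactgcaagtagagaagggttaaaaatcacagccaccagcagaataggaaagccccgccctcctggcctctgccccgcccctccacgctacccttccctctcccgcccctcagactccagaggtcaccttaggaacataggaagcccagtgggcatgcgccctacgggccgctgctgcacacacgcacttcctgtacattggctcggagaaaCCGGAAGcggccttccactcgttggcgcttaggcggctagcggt
Sdhd: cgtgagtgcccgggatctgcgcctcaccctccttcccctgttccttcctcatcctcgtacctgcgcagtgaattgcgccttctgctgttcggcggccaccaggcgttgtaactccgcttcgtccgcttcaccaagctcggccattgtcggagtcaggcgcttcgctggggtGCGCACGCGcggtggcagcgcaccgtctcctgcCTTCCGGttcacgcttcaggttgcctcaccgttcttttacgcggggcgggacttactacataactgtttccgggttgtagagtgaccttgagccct

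The windows of Cox7a1 and of its partner Cox7a2 both held no match to these motifs. The Cox8b window held none and that of its partner Cox8a held 2 to the ETS core. In complex II, the Sdha window held 3 NRF1 core matches, the Sdhb window 1 ETS core match and the Sdhd window 1 of each, so that NRF1 core matches stood in a subunit that was lower and in one that did not pass the test. A window was found for 62 of the 76 members, and Cox6a2 and Sdhc have none in the table used. Of these 62, 20 (32.3%) held the NRF1 core, against 12.6% of the 12330 listed genes with a window and 6.25% of all 32851 windows. The ETS core stood in 15 (24.2%), against 16.2% and 8.86%. The core motif of YY1 (AANATGGCG) stood in 11 (17.7%), against 4.82% and 2.38%. At least 1 of the 3 motifs was present in 38 members (61.3%), against 28.9% of those listed genes and 15.4% of all windows. Among the 12 members with a window that were lower in ft/ftMyD88-/-, 4 held any of the 3. Both strands were searched and overlapping matches were counted.

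Across all members, 15 were lower in ft/ftMyD88-/- and none was higher by edgeR's quasi-likelihood test at an adjusted p under 0.05. The 15 make up 19.7% of the members, where 12.3% of all genes tested were lower and 10.9% were higher. These shares of all genes, here and below, include genes with few counts. Without Cox6a2 and Cox7a1, 13 of 74 members were lower (17.6%). Of genes with an annotated principal transcript and a mean of at least 50 counts, 12.4% of the 549 up to 908 bases were lower. Of the 11944 longer ones, 17.4% were lower. For the count of 0 higher members, no member was higher at an unadjusted p under 0.05, nor at an adjusted p under 0.05 by DESeq2 or limma voom. Log2 fold changes, ft/ftMyD88-/- over ft/ft, ran from -1.11 to 0.45 with a median of -0.06, against 0.01 over all genes tested, and 48 were negative and 28 positive. The groups did not overlap for 18 members, all lower, where 14.2% of all genes were lower and 12.5% higher without overlap. The members held 1.06 to 1.21% of all counts in ft/ft and 1.08 to 1.36% in ft/ftMyD88-/-, so that their summed share overlapped between the groups.

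The counts depend on scaling. With library size only, without the TMM factors, 4 members were lower (Cox6a2, Cox7a1, Sdha and Sdhc) and 5 were higher, namely Ndufa4, Uqcr10, Atp5f1, Sdhd and Cox6a1 at log2 fold changes of 0.28 to 0.62. On that scale 6.48% of all genes were lower and 22.7% higher, the median of all genes moved to 0.19 and that of the members to 0.11. The members' median lay 0.08 below that of all genes on either scale. Leaving out ft/ft replicate 4 reduced the members lower from 15 to 9.

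**Figure D1:**
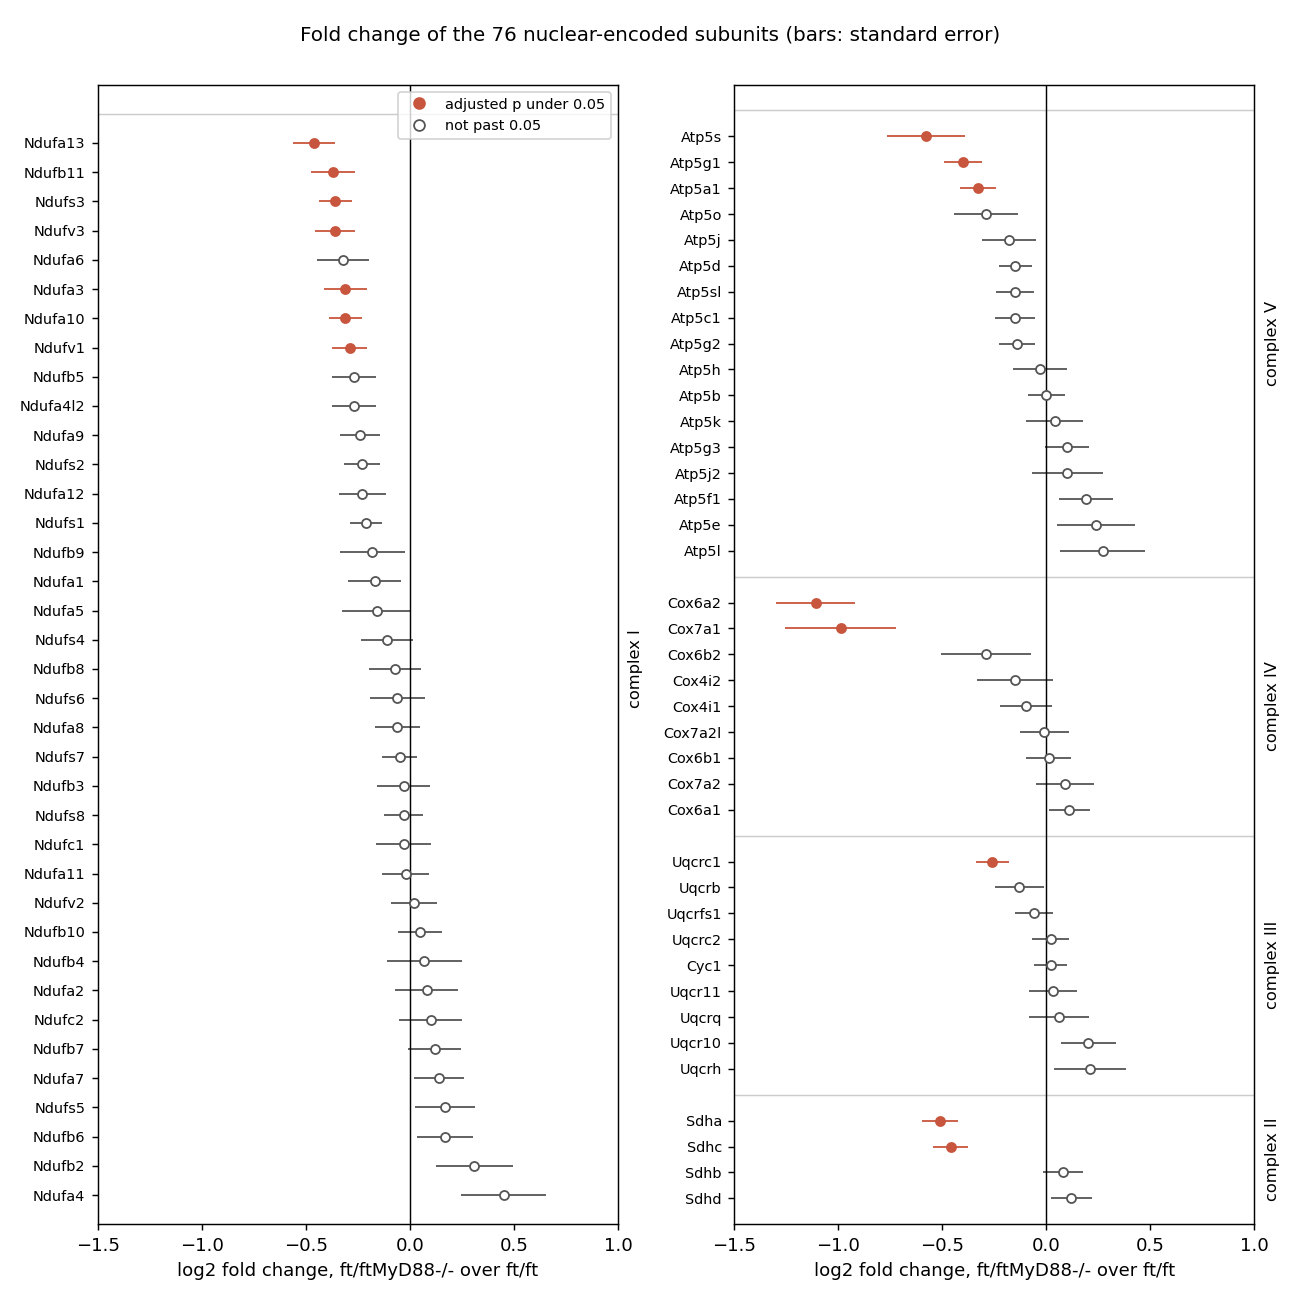
Log2 fold change, ft/ftMyD88-/- over ft/ft, of each of the 76 members (horizontal axis) by complex, with standard errors as bars and filled points for an adjusted p under 0.05. Cox6a2 and Cox7a1 lie near -1, Sdha and Sdhc part from Sdhb and Sdhd, and no filled point lies above 0.

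The muscle isoforms of complex IV showed the lowest log2 fold changes. Cox6a2, the heart and skeletal muscle form of subunit 6A (chromosome 7, 128205435 to 128206366), was at 51.7, 41, 51.8 and 59.4 CPM in ft/ft replicates 1 to 4 and at 15.3, 23.7, 30.6 and 24.6 CPM in ft/ftMyD88-/- replicates 1 to 4. Every ft/ftMyD88-/- library lay below every ft/ft library, with a log2 fold change of -1.11 (standard error, SE, 0.19, adjusted p = 0.00267 by edgeR), and the call held in all 17 alternatives tried. Cox7a1, the muscle form of subunit 7A (chromosome 7, 30184171 to 30186030), was at 24.6, 14.5, 19 and 26.6 CPM in ft/ft and at 5.96, 11, 14.1 and 11.4 CPM in ft/ftMyD88-/-. The nearest libraries, ft/ft replicate 2 and ft/ftMyD88-/- replicate 3, almost met, and the log2 fold change was -0.99 (SE 0.266, adjusted p = 0.0249 by edgeR). Without ft/ft replicate 1, ft/ft replicate 4 or ft/ftMyD88-/- replicate 4 the Cox7a1 call was lost, at log2 fold changes of -0.91, -0.86 and -1.02 and edgeR adjusted p-values of 0.0602 to 0.0665.

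Cox8b, the muscle form of subunit 8 (chromosome 7, 140898942 to 140900446), was at 53.2, 32.2, 45 and 54.3 CPM in ft/ft and at 15.3, 24, 33.4 and 26.8 CPM in ft/ftMyD88-/-. Its groups overlapped, since ft/ftMyD88-/- replicate 3 exceeded ft/ft replicate 2, and the log2 fold change was -0.89 (SE 0.243, adjusted p = 0.0294 by edgeR). Leaving out ft/ft replicate 1, 3 or 4 or ft/ftMyD88-/- replicate 2 or 4 ended the Cox8b call, at log2 fold changes of -0.80 to -0.92 and edgeR adjusted p-values of 0.0613 to 0.0766.

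Their partner isoforms, made in most tissues, did not pass the test. Cox6a1 was at 207, 182, 183 and 173 CPM in ft/ft and 186, 201, 183 and 231 CPM in ft/ftMyD88-/- (log2 fold change 0.11, edgeR adjusted p = 0.471). Cox7a2 was at 145, 116, 115 and 128 CPM in ft/ft and 118, 115, 125 and 178 CPM in ft/ftMyD88-/- (log2 fold change 0.09, edgeR adjusted p = 0.682, and -0.07 without ft/ftMyD88-/- replicate 4). Cox8a, outside the member stems, was at 146 to 161 CPM in ft/ft and 140.3 to 157 CPM in ft/ftMyD88-/- (log2 fold change -0.03, edgeR adjusted p = 0.81). Per kb of principal transcript, the mean ft/ft level was 75 CPM for Cox6a2 and 326 for Cox6a1, 53.9 for Cox7a1 and 191 for Cox7a2, and 128 for Cox8b and 275 for Cox8a.

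**Figure D2:**
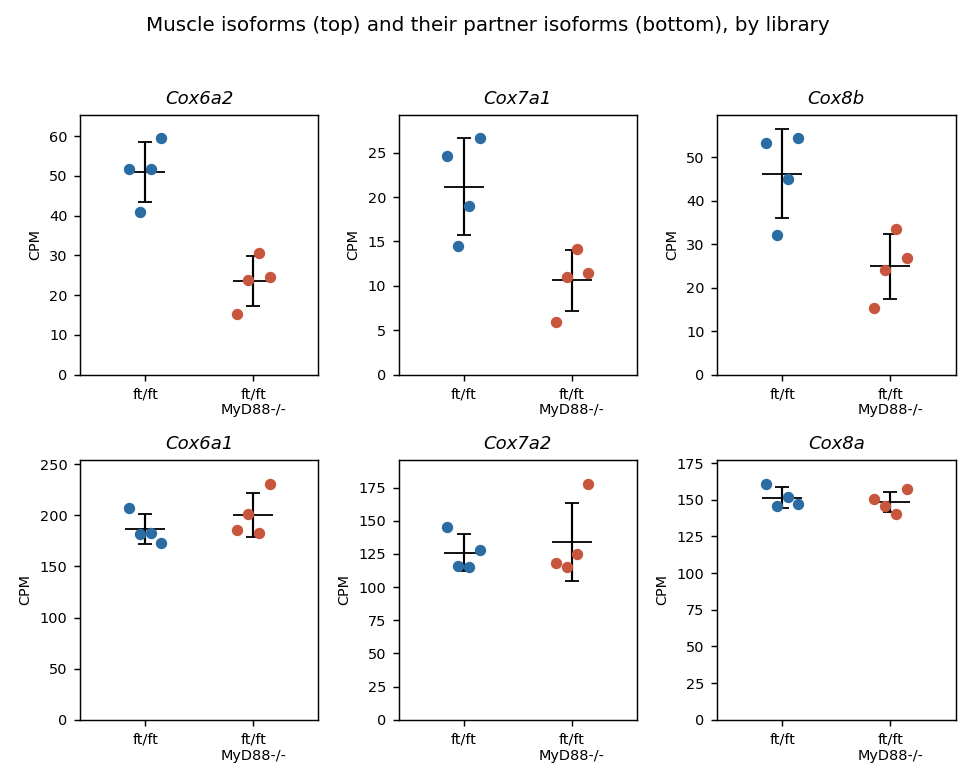
Level in CPM (vertical axis, linear from 0) of the muscle isoforms Cox6a2, Cox7a1 and Cox8b (top) and their partners Cox6a1, Cox7a2 and Cox8a (bottom) in each library, with bars at the mean ± SD of the 4 libraries of a group. The groups are apart for Cox6a2 and Cox7a1, meet for Cox8b and overlap for the 3 partners.

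The log2 ratio of the counts of both isoforms within a library is free of the scaling between libraries. Cox6a2 over Cox6a1 averaged -1.88 ± 0.264 (SD, n = 4) in ft/ft and -3.12 ± 0.424 (SD, n = 4) in ft/ftMyD88-/-, a difference of -1.25 without overlap. Cox7a1 over Cox7a2 averaged -2.60 ± 0.302 (SD, n = 4) and -3.70 ± 0.528 (SD, n = 4), a difference of -1.10 without overlap. For Cox8b over Cox8a the means were -1.74 ± 0.318 and -2.63 ± 0.504 (SD, n = 4 each) and the libraries overlapped. These ratios are given as descriptions, with no test.

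Muscle transcripts moved alongside. Of 20 skeletal muscle markers 15 were lower in ft/ftMyD88-/- (75%, against 12.3% of all genes tested) and none was higher. Their median log2 fold change was -1.0, and their summed level was 12462 to 16814 CPM in ft/ft and 4728 to 8969.8 CPM in ft/ftMyD88-/-. Only Tnni1, low in every library, had a positive log2 fold change, 0.67, and it did not pass the test (edgeR adjusted p = 0.154). Ckm, the muscle creatine kinase, had a log2 fold change of -1.10 (edgeR adjusted p = 0.00157), and Acta1, skeletal muscle actin, one of -0.91 (edgeR adjusted p = 0.00547). No marker was higher at an unadjusted p under 0.05 or by DESeq2 or limma voom. None of the 20 was at 0 in a whole group, although Tnnc2 stayed at 0.034 to 0.131 CPM throughout. The part of muscle content in the isoform differences was not tested, and in bulk tissue fewer cells of a type cannot be told apart from less RNA per cell. Cox7a1 and Cox8b are also made in brown adipocytes. Of 3 markers of those cells, Ucp1 was at 0.167 to 0.686 CPM in ft/ft and 0.0735 to 0.366 CPM in ft/ftMyD88-/- and Dio2 at 15.2 to 19.6 and 13.3 to 59.3 CPM, both with overlap. Cidea, which sebocytes also express, was lower, at 459 to 509.7 CPM in ft/ft and 289.7 to 421 CPM in ft/ftMyD88-/- (log2 fold change -0.46, edgeR adjusted p = 0.0105). The part of brown adipocytes was not tested.

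Complex II, succinate dehydrogenase, has 4 subunits. Of these, 2 were lower in ft/ftMyD88-/- (50%, against 12.3% of all genes tested), while the others did not pass the test. Sdha, the flavoprotein that oxidises succinate (chromosome 13, 74322255 to 74350240), was at 289.6, 285, 308 and 319.8 CPM in ft/ft and 196, 215, 232 and 202 CPM in ft/ftMyD88-/-. All 4 ft/ftMyD88-/- libraries lay below all ft/ft libraries, with a log2 fold change of -0.51 (SE 0.0869, adjusted p = 0.00172 by edgeR). Sdhc, a membrane anchor that binds haem (chromosome 1, 171129157 to 171150640), was at 182, 159, 187 and 173 CPM in ft/ft and 119, 135, 132 and 126 CPM in ft/ftMyD88-/-, again without overlap, with a log2 fold change of -0.46 (SE 0.0844, adjusted p = 0.00273 by edgeR). Both calls held in all 17 alternatives.

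Sdhb, the iron-sulfur subunit (chromosome 4, 140961271 to 140979198), was at 138, 125, 131 and 146 CPM in ft/ft and 128, 138, 140.4 and 167 CPM in ft/ftMyD88-/- (log2 fold change 0.08, SE 0.0969, adjusted p = 0.59 by edgeR). Sdhd, the other membrane anchor (chromosome 9, 50596340 to 50603849), was at 113, 93.9, 100.3 and 99.8 CPM in ft/ft and 93.3, 114, 113 and 124 CPM in ft/ftMyD88-/- (log2 fold change 0.12, SE 0.0998, adjusted p = 0.401 by edgeR). The groups overlapped for both. The difference between the subunits was not tested. With library size only, Sdhd was higher in ft/ftMyD88-/- at 0.30 (edgeR adjusted p = 0.0353), while Sdha at -0.33 and Sdhc at -0.28 stayed lower.

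**Figure D3:**
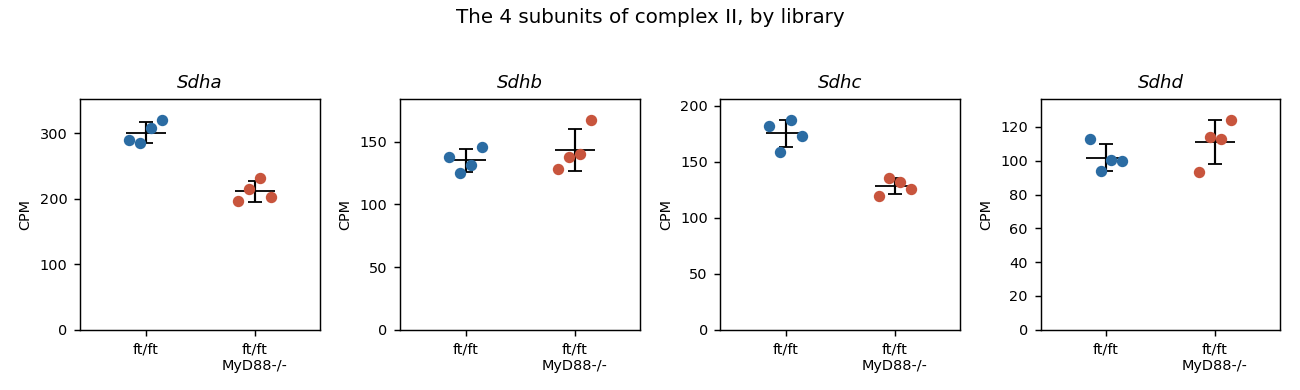
Level in CPM (vertical axis, linear from 0) of Sdha, Sdhb, Sdhc and Sdhd in each library, with bars at the mean ± SD of the 4 libraries of a group. Sdha and Sdhc have means of 301 and 176 CPM in ft/ft and 211 and 128 CPM in ft/ftMyD88-/- without overlap, and Sdhb and Sdhd overlap.

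Complex I, NADH dehydrogenase, had 37 members, with a median log2 fold change of -0.07. Of these, 7 were lower in ft/ftMyD88-/- (18.9%, against 12.3% of all genes tested) and none was higher. DESeq2 and limma voom also called none higher, and no complex I member was higher at an unadjusted p under 0.05. The lower members belong to several regions of the complex. Ndufv1, which binds NADH and FMN, Ndufv3 and the matrix-arm subunit Ndufs3 had log2 fold changes of -0.29, -0.36 and -0.36, and the accessory subunits Ndufa13, Ndufb11, Ndufa10 and Ndufa3 had -0.46, -0.37, -0.31 and -0.31. Ndufa13 was at 116, 90.9, 98.5 and 106 CPM in ft/ft and 65, 77.4, 81.3 and 75.8 CPM in ft/ftMyD88-/- (SE 0.1, adjusted p = 0.00665 by edgeR). Ndufb11 was at 125, 99.2, 108 and 108 CPM in ft/ft and 71.6, 84.3, 88.6 and 95.6 CPM in ft/ftMyD88-/- (SE 0.105, adjusted p = 0.023 by edgeR). The groups were apart for both genes, and 6 of the 7 lower members did not overlap, the exception being Ndufa3.

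At an adjusted p under 0.05, Ndufa13, Ndufs3, Ndufa10 and Ndufv3 lost their call with library size only and in no other alternative, and at an adjusted p under 0.01 Ndufa13 and Ndufs3 remained. Ndufb11 lost it without ft/ft replicate 1 or 4 or ft/ftMyD88-/- replicate 1 (edgeR adjusted p 0.0529 to 0.0602), Ndufv1 without ft/ft replicate 1, 3 or 4 or ft/ftMyD88-/- replicate 1, 3 or 4 (edgeR adjusted p 0.0519 to 0.0663), and Ndufa3 without ft/ft replicate 1, 3 or 4 or ft/ftMyD88-/- replicate 1, 2 or 3 (edgeR adjusted p 0.0543 to 0.117). Ndufb11 and Ndufa1 lie on the X chromosome, of which the libraries carried transcripts of different sexes, and Ndufa1 had a log2 fold change of -0.17 (edgeR adjusted p = 0.348). Of the 50-base windows of the Ndufs3 transcript 39.7%, and of those of Ndufa13 28.5%, also occur in transcripts of other genes, which leaves their counts uncertain. Of the 75 members with a principal transcript, 34 share no such window with another gene and 14 share over 20% of them.

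At the other end stood Ndufa4, a small subunit now also assigned to complex IV, at 274, 185, 164 and 199 CPM in ft/ft and 204, 267, 266 and 385 CPM in ft/ftMyD88-/-. The groups overlapped because ft/ft replicate 1 was high, and the log2 fold change of 0.45 did not pass the test (SE 0.205, adjusted p = 0.144 by edgeR). Without that library it was 0.62 (edgeR adjusted p = 0.0453), and without ft/ftMyD88-/- replicate 4 it was 0.27 (edgeR adjusted p = 0.304). Ndufa4l2, its hypoxia-inducible relative, was at 67.7, 87.7, 87.2 and 73.2 CPM in ft/ft and 71.3, 68, 57.4 and 65.6 CPM in ft/ftMyD88-/- (log2 fold change -0.27, edgeR adjusted p = 0.0869), and passed at -0.33 (edgeR adjusted p = 0.0414) without ft/ft replicate 1. The log2 ratio of Ndufa4l2 over Ndufa4 averaged -1.36 ± 0.488 in ft/ft and -2.06 ± 0.436 in ft/ftMyD88-/- (SD, n = 4 each), with overlap. Ndufb2 was low in every library, at 2.11 to 3 CPM in ft/ft and 2.5 to 3.5 CPM in ft/ftMyD88-/- (log2 fold change 0.31, edgeR adjusted p = 0.255).

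Complex III, which passes electrons from ubiquinol to cytochrome c, had 9 members with a median log2 fold change of 0.02. Uqcrc1, a core subunit, was lower, at 432, 423, 432 and 428 CPM in ft/ft and 344, 373, 349 and 365 CPM in ft/ftMyD88-/-. The ft/ft libraries lay close together, above every ft/ftMyD88-/- library, and the log2 fold change was -0.26 (SE 0.0784, adjusted p = 0.0307 by edgeR). The call was lost without any one of ft/ft replicates 1 to 4 or ft/ftMyD88-/- replicates 1 and 3, at log2 fold changes of -0.24 to -0.27 and edgeR adjusted p-values of 0.0521 to 0.0814. The other core subunit, Uqcrc2, had a log2 fold change of 0.02 (edgeR adjusted p = 0.88), and Cyc1, cytochrome c1, also had 0.02 (edgeR adjusted p = 0.878). Uqcrb was at -0.13, and the hinge protein Uqcrh and Uqcr10 were at 0.21 and 0.20 (edgeR adjusted p = 0.428 and 0.311). Uqcrh reached 264 CPM in ft/ftMyD88-/- replicate 4, against 142 to 195 CPM in the other 7 libraries, and without that library Uqcrh was at 0.01 and Uqcr10 at 0.07.

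Complex IV, cytochrome c oxidase, had 7 members apart from the muscle isoforms, and none was called in either direction by edgeR, DESeq2 or limma voom. None of the 7 had an unadjusted p under 0.05, and the median log2 fold change was -0.01. Cox4i1, the common form of subunit 4, was at 431, 333, 361 and 369 CPM in ft/ft and 286, 338, 340.4 and 426 CPM in ft/ftMyD88-/- (log2 fold change -0.10, edgeR adjusted p = 0.587). Cox4i2, the form best known from lung and made more under low oxygen, was at 3.09 to 3.96 CPM in ft/ft and 2.63 to 3.78 CPM in ft/ftMyD88-/- (log2 fold change -0.15, edgeR adjusted p = 0.591), and its log2 ratio to Cox4i1 differed by -0.05 with overlap. Cox6b2, the testis form of subunit 6B, was at 1.56 to 2.57 CPM in ft/ft and 1.58 to 2.2 CPM in ft/ftMyD88-/- (log2 fold change -0.29, edgeR adjusted p = 0.358), and its log2 ratio to Cox6b1 differed by -0.27 with overlap. Of the 9 subunits outside the stems, Cox8b was called and the other 8, from Cox6c at -0.13 to Usmg5 at 0.38, did not pass the test.

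Complex V, ATP synthase, had 17 members, with 3 lower (17.6%, against 12.3% of all genes), none higher and a median log2 fold change of -0.14. Members were assigned by symbol, so the 17 include Atp5sl, listed in RefSeq as Dmac2 (log2 fold change -0.15, edgeR adjusted p = 0.26). No complex V member was higher at an unadjusted p under 0.05 or by DESeq2 or limma voom. Atp5g1, which encodes subunit c of the rotor ring, was at 155, 139, 142 and 149 CPM in ft/ft and 95.4, 116, 110.2 and 121 CPM in ft/ftMyD88-/-, without overlap (log2 fold change -0.40, SE 0.0904, adjusted p = 0.00753 by edgeR). Atp5g3 encodes the same mature subunit c and was at 326 to 388 CPM in ft/ft and 329 to 436 CPM in ft/ftMyD88-/- (log2 fold change 0.10, edgeR adjusted p = 0.546). The remaining Atp5g member, Atp5g2, was at 94.5 to 115 CPM and 89.1 to 101 CPM (log2 fold change -0.14, edgeR adjusted p = 0.28), with overlap. The log2 ratio of Atp5g1 over Atp5g3 was -1.33, -1.22, -1.28 and -1.26 in ft/ft and -1.79, -1.77, -1.68 and -1.85 in ft/ftMyD88-/-. These groups were far apart for their spread, with a difference of -0.50, given as a description with no test.

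Atp5a1, the alpha subunit of the catalytic head, was at 1254 to 1347 CPM in ft/ft and 991 to 1048 CPM in ft/ftMyD88-/- (log2 fold change -0.33, edgeR adjusted p = 0.0169), and without ft/ft replicate 3 it was at -0.30 (edgeR adjusted p = 0.0549). Atp5b, the catalytic beta subunit and the highest member per kb in ft/ft (782 CPM per kb, with a median of 121 over the members), did not pass, at 1446 to 1527 CPM and 1415 to 1605 CPM (edgeR adjusted p = 0.979). Atp5s, listed in RefSeq as Dmac2l and a coupling factor rather than a core subunit, was at 5.13 to 8.7 CPM in ft/ft and 3.46 to 4.97 CPM in ft/ftMyD88-/- (log2 fold change -0.58, edgeR adjusted p = 0.044). Leaving out any single library except ft/ft replicate 2 ended that call (log2 fold changes -0.42 to -0.63, edgeR adjusted p 0.0503 to 0.125). Atp5e, the epsilon subunit, and Atp5l, subunit g, had log2 fold changes of 0.24 and 0.27 (edgeR adjusted p = 0.396 and 0.364). Single libraries moved both: Atp5e was at 0.03 (edgeR adjusted p = 0.899) without ft/ftMyD88-/- replicate 4, and Atp5l was at 0.53 (edgeR adjusted p = 0.0323) without ft/ft replicate 1 and at 0.18 (edgeR adjusted p = 0.622) without ft/ft replicate 4. Of the 50-base windows of Atp5l, 84.8% occur in other genes, and its level is uncertain.

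Within each group the members moved together between libraries. Over the 74 members without the muscle isoforms, ft/ft replicate 1 was the highest library of its group for 58 and ft/ft replicate 2 the lowest for 58. In ft/ftMyD88-/-, replicate 4 was the highest for 61 and replicate 1 the lowest for 62. The median deviation from the group mean was 0.17 and -0.13 on the log2 scale in those ft/ft libraries and 0.25 and -0.21 in those ft/ftMyD88-/- libraries, whereas over all genes it lay between -0.01 and 0.01. The spread among libraries of one group was thus larger than the members' median difference of -0.06 between the groups.

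The subunits encoded by mitochondrial DNA were described beside the members. Of these 13 genes, 11 were lower in ft/ftMyD88-/- (84.6%, against 12.3% of all genes tested) and none was higher. Their median log2 fold change was -0.96, and all 13 were lower at an unadjusted p under 0.05. No gene of the 13 was higher by DESeq2 or limma voom. mt-Co1, a catalytic subunit of complex IV, was at 7993 to 10874 CPM in ft/ft and 3354 to 7059 CPM in ft/ftMyD88-/- (log2 fold change -0.93, edgeR adjusted p = 0.00894), and mt-Nd1 of complex I had -1.02 (edgeR adjusted p = 0.00201). The 13 genes took 1.71 to 2.45% of counts in ft/ft and 0.83 to 1.72% in ft/ftMyD88-/-. In ft/ftMyD88-/- replicate 4, the library in which nuclear-encoded members stood highest, the mitochondrially encoded genes stood lowest, at a median of -0.91 on the log2 scale from the mean over all libraries, where the nuclear-encoded members stood at 0.23 and the muscle markers at -0.53. Transcripts of mitochondrial DNA carry short tails, and the recovery of such RNA by the library preparation was not tested.

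**Figure D4:**
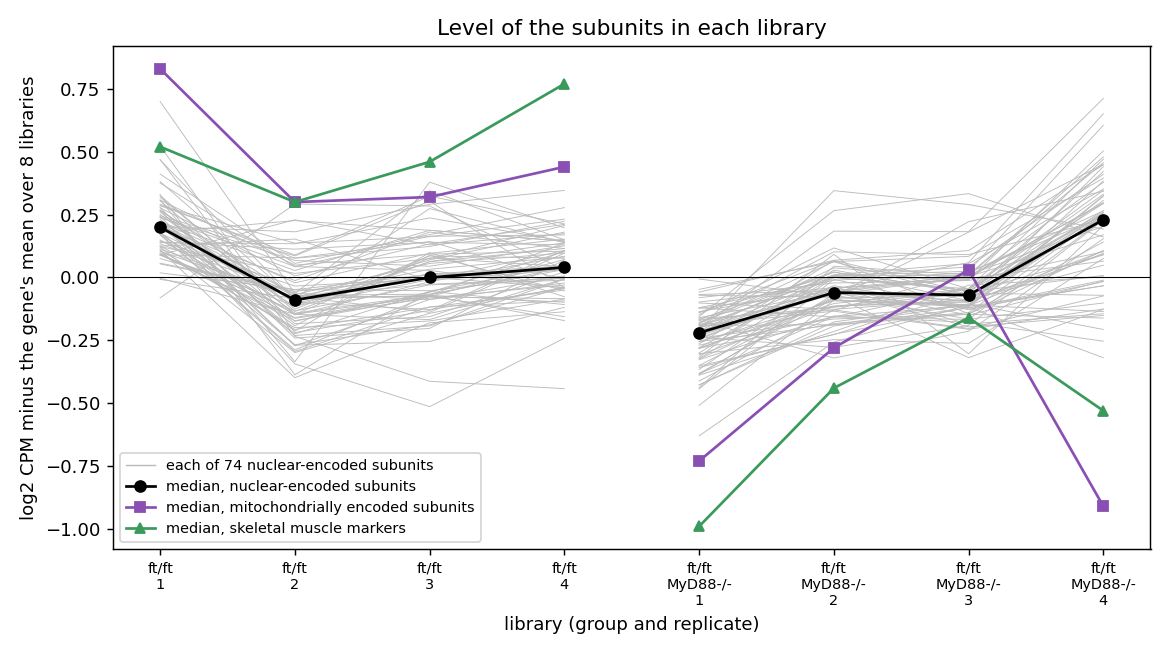
Log2 CPM minus the gene's mean over the 8 libraries (vertical axis) in each library (horizontal axis) for 74 members (thin lines), with medians of the members (circles), of 13 mitochondrially encoded subunits (squares) and of 20 skeletal muscle markers (triangles). In ft/ftMyD88-/- replicate 4 the median of the members is 0.23 and that of the mitochondrially encoded subunits -0.91.

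Members with longer transcripts had lower log2 fold changes. Over the 73 members outside muscle with a principal GENCODE M21 transcript, Spearman's correlation coefficient between transcript length and log2 fold change was -0.404, and -0.448 to -0.307 when each library was left out. This correlation is across genes that share the same 8 libraries and is given as a description. Among the 37 members up to the median length of 908 bases, 2 were lower and the median log2 fold change was -0.02, and among the 36 longer ones 11 were lower with a median of -0.15. Over 12493 tested genes with such a transcript and a mean of at least 50 counts, the coefficient was -0.0643, the 549 genes up to 908 bases had a median of 0.11 with 12.4% lower, and the longer genes had -0.02 with 17.4% lower. The transcripts of Atp5g1 (4715 bases) and Ndufb2 (4371) are long for the family and were kept as annotated. That of Atp5g1 exceeds the span of its RefSeq gene (chromosome 11, 96072793 to 96075694), and its length is uncertain. Between length and the deviation of a member from its group mean, the coefficient was -0.486, 0.307, 0.242 and 0.12 in ft/ft replicates 1 to 4 and 0.396, 0.397, 0.208 and -0.568 in ft/ftMyD88-/- replicates 1 to 4. Over all genes the lowest were again ft/ftMyD88-/- replicate 4 (-0.453) and ft/ft replicate 1 (-0.358), while ft/ftMyD88-/- replicate 2 was at -0.0661. The part of transcript length in the differences between subunits, Sdha (2900 bases) and Sdhc (3171) against Sdhb (1142) and Sdhd (1231) among them, was not tested.

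**Figure D5:**
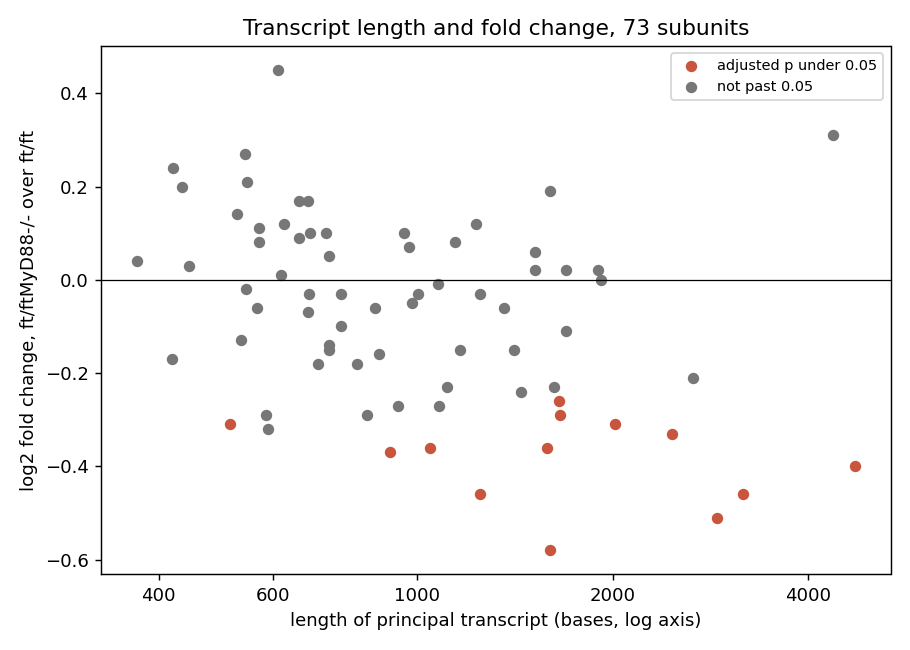
Length of the principal transcript in bases (horizontal, log axis) against log2 fold change, ft/ftMyD88-/- over ft/ft (vertical axis), for 73 members outside muscle, with coloured points for an adjusted p under 0.05. Of the 37 members up to 908 bases 2 are coloured, and of the 36 longer ones 11.

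Other genes of mitochondrial metabolism were counted from fixed lists. The citric acid cycle supplies NADH and succinate. Of 12 of its genes, 4 were lower (33.3%, against 12.3% of all genes) and none was higher (median log2 fold change -0.15). They were Ogdh, a subunit of the 2-oxoglutarate dehydrogenase complex (-0.58, edgeR adjusted p = 0.000707), Cs, citrate synthase (-0.45, edgeR adjusted p = 0.00256), Suclg2 (-0.34) and Idh3g (-0.33). The groups did not overlap for any of these 4, and none of the 12 was higher at an unadjusted p under 0.05 or by DESeq2 or limma voom. Of 42 assembly factors, which help to build the complexes without staying in them, 4 were lower (Bcs1l -0.45, Surf1 -0.39, Coa5 -0.26 and Acad9 -0.24) and 3 higher (Ndufaf4 0.59, Cox11 0.47 and Cox17), which are 9.52% and 7.14% of the list against 12.3% and 10.9% of all genes, with a median of 0.11. Cox17, a copper chaperone, was at 0 to 0.218 CPM in ft/ft and 0.57 to 1.04 CPM in ft/ftMyD88-/-, too low for its fold to be read.

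Among 16 genes of the mitochondrial membranes and import, 3 were lower, namely the adenine nucleotide carrier Slc25a4 (-0.69, edgeR adjusted p = 0.00579) and the porins Vdac1 (-0.57, edgeR adjusted p = 0.000885) and Vdac2 (-0.24, edgeR adjusted p = 0.0429), and the median was 0.09. These 3 make up 18.8% of the list, against 12.3% of all genes tested, and none was higher. Slc25a4 is the isoform that predominates in muscle. Of 13 regulators of mitochondrial biogenesis, Esrrg, a nuclear receptor, was lower at 1.1 to 1.84 CPM against 2.84 to 3.99 CPM (log2 fold change -1.35, edgeR adjusted p = 0.00103), and Pprc1, a coactivator, was higher at 33.3 to 39 CPM against 21 to 29.2 CPM (log2 fold change 0.49, edgeR adjusted p = 0.0106). Either call is 7.69% of that list, where 12.3% of all genes were lower and 10.9% higher. The coactivator Ppargc1a did not pass the test, at 0.03 (edgeR adjusted p = 0.93). Cycs, the electron carrier cytochrome c, was at 98.3 to 139 CPM in ft/ft and 106 to 174 CPM in ft/ftMyD88-/- (log2 fold change 0.24, edgeR adjusted p = 0.276). Of 10 targets of hypoxia-inducible factors, Vegfa and Adm were higher (0.51 and 0.64) and Pdk1, which inhibits pyruvate dehydrogenase, was lower (-0.34). That is 20% higher and 10% lower, against 10.9% and 12.3% of all genes.

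Markers of several other cell types also differed between the groups, where 12.3% of all genes tested were lower and 10.9% higher. Of 5 fibroblast markers 3 were lower, the collagens Col1a1, Col1a2 and Col3a1 (summed level 13830.3 to 28725 CPM in ft/ft and 6802 to 10061 CPM in ft/ftMyD88-/-), of 7 sebocyte markers 4 were lower (5110.3 to 6031 and 4232 to 5449.6 CPM), and of 6 keratinocyte markers 3 were lower (23171 to 30729.8 and 18231 to 22579.7 CPM). All 4 proliferation markers were higher (121 to 194 and 232 to 296 CPM), and 2 of 4 leukocyte markers were higher (69.7 to 88.6 and 74.9 to 100.1 CPM). Of 7 adipocyte markers edgeR, DESeq2 and limma voom called none and 0 had an unadjusted p under 0.05. Among 7 mural cell markers 1 was lower and 1 higher. None of 4 hyperproliferative keratinocyte markers was called by edgeR, at log2 fold changes of 0.20 to 2.58. The part of cell composition in the subunit differences was not tested.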

How the data were processed

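Eye-skin RNA was sequenced in 8 libraries, which the study describes as polyA-selected and read for 50 cycles from one end, whereas their labels give total RNA, a single-cell protocol for fixed tissue sections and, among the processing tools, Cell Ranger. The deposited table holds 1 column of counts per library and no cells, and which protocol made it was not tested. Per the study's methods the authors used HISAT and tophat2 against GRCm38.p6 and HTSeq with its defaults. Tool versions, the annotation and the use of strand are not given in the sources used here, and the deposited values are raw counts per gene without normalization. Overlapping and antisense genes therefore cannot be told apart. Wild-type libraries were not analysed here.

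The main test, on the 20454 genes that reached 10 counts in all, was the two-sided quasi-likelihood test of edgeR 4.0.16 under R 4.3.3 with robust dispersions, TMM factors, no covariate and Benjamini-Hochberg adjusted p under 0.05. Standard errors are the log2 fold change over the root of F. The fit was tested on simulated data. Totals were 15802957 counts or more per library and the biological coefficient of variation was 0.182, beside which counting error is not small for the members with the fewest counts, such as Cox6b2 (36 to 59 counts per library). The alternatives were DESeq2 1.42.0, limma 3.58.1 voom, other scalings and filters, an adjusted p under 0.01, the replicate number as a block and each library left out. No 2 libraries of a group agreed within sampling noise. Isoform ratios used counts plus 1.

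Members and gene lists were chosen with earlier results of these data known. Named in full were the muscle isoforms and their partners, Cox4i2, Ndufa4l2, Cox6b2, complex II and, in each other complex, the 2 largest increases and 2 largest decreases among members with a mean of at least 50 counts. Some other members and genes of the lists, not all, were named with their values, and 1 gene of the citric acid cycle list is not reported here. The comparison by transcript length over all genes was chosen after values were seen. Lengths are those of principal GENCODE M21 transcripts. Positions and promoters are from RefSeq, GRCm38.p6, where all 76 members were found, 3 of them under another symbol.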

Additional observations from a re-analysis of the deposited data

Results flagged for a closer look

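In 82 groups of 4 libraries tested for a value far from the others (Dixon's test), 3 stood out, and chance alone gives about 1 in 20. Cox7a2 was at 178 CPM in ft/ftMyD88-/- replicate 4, against 115 to 125 CPM in the other libraries of that group. Ndufv3 was at 55.4 CPM in the same library, against 42.6 to 44.3 CPM in the others. Atp5a1 was at 1347 CPM in ft/ft replicate 3, against 1254 to 1263 CPM in the others.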

How the results depend on the processing

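The count of 15 lower members became 4 with library size only, 8 with the replicate block and 6 at an adjusted p under 0.01, and 9 to 15 when each library was left out. DESeq2 called 16, limma voom 14, RLE scaling 14 and upper quartile scaling 13. Higher members numbered 5 with library size only and 2 without ft/ft replicate 1 (0 to 2 over the libraries left out). The members' median log2 fold change was 0.11 with library size only and 0.01 without ft/ftMyD88-/- replicate 1, with a range of -0.16 to 0.01 over the libraries left out. Medians of single complexes changed sign with library size only for complex I (0.11), IV (0.16) and V (0.04), without ft/ftMyD88-/- replicate 1 for complex I (0.01) and IV (0.04), without ft/ft replicate 1 (0.05) or ft/ftMyD88-/- replicate 2 (0.03) for complex IV, and without ft/ftMyD88-/- replicate 4 for complex III (-0.06). Over the libraries left out they ranged from -0.18 to 0.01 in complex I, from -0.06 to 0.07 in III and from -0.10 to 0.05 in IV. Cox7a1 was at -1.01 with the replicate block (edgeR adjusted p = 0.0619) and at -1.15 to -0.79 over the libraries left out. Cox8b lost its call with library size only, at -0.71 (edgeR adjusted p = 0.0584), and was at -1.05 to -0.71 over the libraries left out. The Cox8b call held in 11 of the 17 alternatives. Cox6a2, Sdha and Sdhc kept direction and call in all 17 alternatives. The cause of the lost calls was not tested. Same-numbered libraries did not deviate together (correlations from -0.146 to 0.0251), so the numbers do not pair the samples, and all 8 members lower with the replicate block were among the 15. Depth limits the low members, such as Ndufb2 and Cox6b2, which had under 4 CPM.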
